A study of Mus musculus with 6 samples.

Results

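Heme synthesis turns glycine and succinyl-CoA into an iron-holding porphyrin in a chain of enzymes that starts and ends in mitochondria. 5-Aminolevulinate synthase carries out the first and rate-limiting step and exists in 2 forms, Alas1, which is made in all tissues and is held down by heme, and Alas2, which is made in red cell precursors and supplies the heme of hemoglobin. Monocytes need heme for the NADPH oxidase, catalase and the cytochromes, and like other cells outside the red lineage use Alas1. The next steps are shared by all cells. Alad joins the first product into porphobilinogen, Uros closes the ring, Urod trims its side chains, Cpox and Ppox oxidise it, and Fech inserts the iron.

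The mRNA of these 8 genes (Alas1, Alas2, Alad, Uros, Urod, Cpox, Ppox and Fech) was compared in splenic monocytes. They were chosen by name, as enzymes of the pathway with both forms of its first step, out of 46072 gene identifiers in the tables. Each of the 8 had 1 identifier, and all 8 passed the filter on low counts together with 16138 genes in total.

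The study asked how depletion of gut Bacteroidota changes innate immune cells outside the gut. Female C57BL/6 mice received 2 mg of vancomycin a day by gavage for 6 days (Van) or water by the same route (Con). Both groups then rested without the antibiotic, for 8 days as the study states for these libraries, while the labels give 6 to 8 days. Monocytes were taken from the spleen by negative magnetic selection and were not stimulated before polyadenylated RNA was sequenced. The labels give no transgene or deletion in either group. Each group had 3 mice with 1 library each, so that the replicate error is the spread between 3 libraries. A group of vancomycin-treated mice given a bacterial lipid was not analysed here.

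The 6 libraries held between 43.4M and 61.8M estimated counts (M, counts in units of 1e6), which correspond to about 16.3M to 23.2M fragments, and no library stood apart in depth or in its scaling factor. Levels are given in CPM, counts per 1e6 counts of a library after TMM scaling, or, between genes, in FPKM, which also divides by transcript length. Monocyte genes were abundant in all libraries (Lyz2, lysozyme, with 12137 CPM in Con against 11290 CPM in Van, and Csf1r, their growth factor receptor, 3168 CPM and 3358 CPM). Ly6g, the defining marker of neutrophils, had a count of 0 in every library, but other neutrophil markers were detected. S100a8 was at 1.55 CPM in Con against 1.47 CPM in Van, S100a9 at 2.21 and 1.03 CPM, and Ngp at 1.56 and 0.625 CPM. Retnlg was at 0.704 and 0.117 CPM and Camp at 0.130 and 0.157 CPM. Across all genes the quasi-likelihood test of edgeR called 322 genes at a Benjamini-Hochberg adjusted p of at most 0.05. The median log2 fold change of all genes tested was -0.0014. A selection that leaves cells untouched by antibody keeps what the kit does not bind, and in bulk RNA fewer cells of a type and less RNA per cell cannot be told apart.

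The following 3 sequences are shown because the values below turn on the 2 forms of the first step and on Cpox, the only other enzyme whose difference came near the threshold. They are the 250 bases before a RefSeq start on GRCm38.p6, 5′ to 3′ on the strand of the gene, with 3 kinds of letters in capitals wherever they occur on either strand: AGATAA or TGATAA (bound by GATA factors), CACCC (bound by KLF1) and GCATGCGC (bound by NRF1).
Alas2 promoter: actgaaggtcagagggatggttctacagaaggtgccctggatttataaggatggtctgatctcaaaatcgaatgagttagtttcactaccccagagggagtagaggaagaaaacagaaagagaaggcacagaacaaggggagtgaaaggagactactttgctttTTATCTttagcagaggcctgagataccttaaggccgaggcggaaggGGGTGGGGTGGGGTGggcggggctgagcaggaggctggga
Alas1 promoter: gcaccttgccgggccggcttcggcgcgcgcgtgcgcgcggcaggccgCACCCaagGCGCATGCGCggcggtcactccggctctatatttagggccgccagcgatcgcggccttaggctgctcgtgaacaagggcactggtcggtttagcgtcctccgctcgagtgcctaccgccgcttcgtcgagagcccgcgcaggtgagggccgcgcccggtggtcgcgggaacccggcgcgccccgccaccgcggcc
Cpox promoter: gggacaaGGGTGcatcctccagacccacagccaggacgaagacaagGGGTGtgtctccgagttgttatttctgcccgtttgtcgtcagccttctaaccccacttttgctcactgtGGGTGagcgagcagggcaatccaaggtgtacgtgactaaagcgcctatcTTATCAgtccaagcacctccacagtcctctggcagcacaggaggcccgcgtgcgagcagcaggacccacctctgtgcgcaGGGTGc
The Alas2 window lies at chrX:150547167-150547416 on the plus strand. The Alas1 window lies at chr9:106247731-106247980 on the minus strand, before the more downstream of its 2 starts and inside the gene, and was chosen after the letters were read, since the upstream window held 1 CACCC box and neither of the other kinds. The Cpox window lies at chr16:58669958-58670207 on the plus strand.

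The Alas2 window held 1 GATA form, 86 to 81 bases before the start, and 3 back-to-back CACCC boxes between 40 and 26 bases before it, all read on the opposite strand. The Alas1 window held no GATA form and 1 CACCC box, and instead the NRF1 letters on both strands in an overlapping palindrome, 195 to 186 bases before the start. Cpox held a GATA form at the same distance from its start as Alas2, 86 to 81 bases, and 4 CACCC boxes spread from 243 to 2 bases before it. Over 32851 promoter windows of the same length, 16.6% held either GATA form, 52.0% held CACCC at least 1 time and 2.26% held the NRF1 letters, so that CACCC alone is common and the NRF1 letters are rare. Of the remaining windows read, those of Ppox and Urod held none of the 3 kinds, the downstream one of Uros held 1 GATA form and the downstream one of Alad 1 CACCC box, and none was used for Fech. The TATA letters TATAAA (12.4% of all windows) stood in the Alas2 window only, on the opposite strand 209 to 204 bases before the start, and TGACTCA, a core shared by AP-1 and MARE sites (4.46% of all windows), in none of those read. A match is a description of letters and no measure of binding.

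Alas2 mRNA is also known for control by iron through its leader. The iron responsive element, a hairpin bound by iron regulatory proteins when iron is scarce, has a loop that reads CAGTGN, with an unpaired C 6 bases before its first letter. In the 5′ UTR of an Alas2 transcript (GENCODE annotation of GRCm38, a leader of 126 bases) these letters stood at bases 96 to 101, and the loop and the C are in capitals.
Alas2 leader site: tctttggttCgtcctCAGTGCagggcaaca
No 5′ UTR of Alas1 held them. The letters alone are not specific, since 12.3% of 21184 genes with an annotated 5′ UTR hold them in some transcript, Uros among them.

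Alas2 mRNA was higher in Van than in Con by 4.24-fold. In the 3 Con libraries it was at 1.29, 1.63 and 1.06 CPM, and in the 3 Van libraries at 5.88, 7.45 and 3.67 CPM. All Van libraries lay above all Con libraries, with Van 2 the highest and Con 3 the lowest. The log2 fold change was 2.08 with a standard error of 0.29 (95% interval of the fold 2.68 to 6.69), and the edgeR quasi-likelihood test gave a Benjamini-Hochberg adjusted p of 0.0170. It was the only one of the 8 enzymes called, against 2.00% of all genes tested. Behind these values stood an estimated 17.2 to 36.9 fragments in each Con library and 77.7 to 142 in each Van library, so that Alas2 was a scarce mRNA in both groups. The call was lost in 4 of 6 fits that left out 1 library (adjusted p in edgeR of 0.0555 without Con 1, 0.0539 without Con 2, 0.0865 without Con 3 and 0.0758 without Van 2), while the log2 fold change stayed between 1.84 and 2.32. It was also lost with limma on FPKM, where the adjusted p was 0.145 at log2(FPKM + 1) and 0.106 at log2(FPKM + 0.1). The 8 other refits of all 6 libraries kept the call. Among them was the Wald test of DESeq2 (adjusted p of 1.1e-08), which called 962 genes in all.

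**Figure D1:**
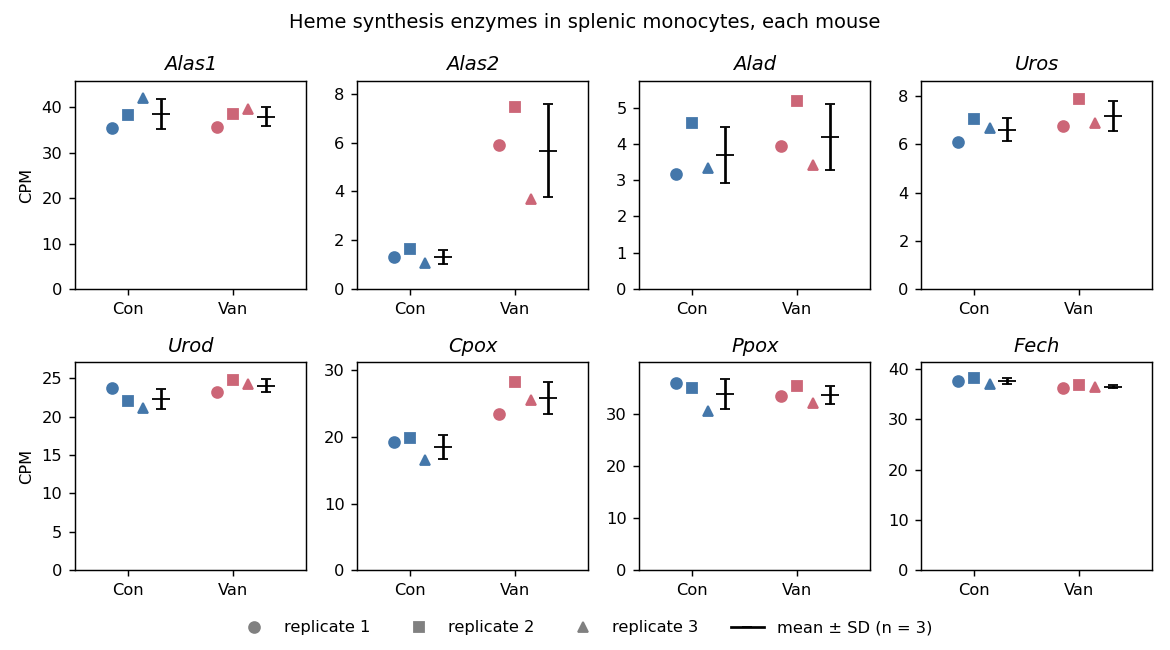
CPM (TMM-scaled) of the 8 enzymes in each library, with the mean ± SD of 3 replicates beside the points and each vertical axis starting at 0. Alas2 averages 1.33 ± 0.29 CPM in Con against 5.67 ± 1.90 CPM in Van and Cpox separates the groups by a smaller fold (1.39 against 4.24), while the points of the other enzymes overlap or, for Fech, nearly touch.

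Alas1, the form of cells outside the red lineage, was not called. Con libraries held 35.4, 38.3 and 42.1 CPM and Van libraries 35.6, 38.7 and 39.7 CPM. The Van values lay within the range of the Con values. The log2 fold change was -0.02 with a standard error of 0.08 (adjusted p of 0.935 by the edgeR quasi-likelihood test), and its 95% interval of -0.21 to 0.16 leaves room for changes of that size.

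The ratio of the 2 forms was set by library. Per transcript length, in FPKM, Alas1 exceeded Alas2 by 21.8, 17.6 and 30.4 times in the Con libraries and by 4.86, 3.88 and 7.87 times in the Van libraries. Alas1 stayed the main form in each library, and the ranges of the ratio did not overlap between groups. Alas2 made up 4.32% ± 1.10 (SD, n = 3) of the summed FPKM of both forms in Con and 16.3% ± 4.66 (SD, n = 3) in Van. An exact two-sided permutation test of the log2 CPM ratio of Alas2 to Alas1, which rose by 2.07 between the group means, gave p = 0.1, the smallest value that 3 against 3 libraries can give. The summed FPKM of both forms was 13.1 ± 1.16 in Con and 14.5 ± 0.81 in Van (SD, n = 3), the groups overlapped, and the exact permutation test gave p = 0.3.

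**Figure D2:**
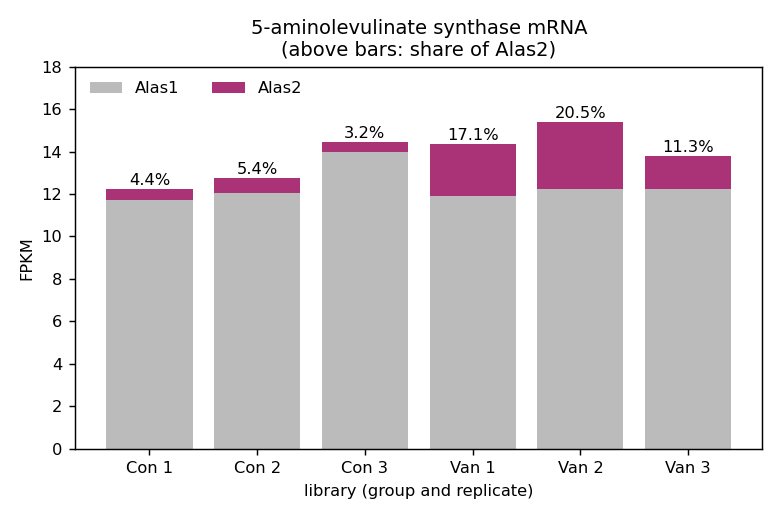
Stacked FPKM of Alas1 (grey) and Alas2 (purple) in each of the 6 libraries, from 0, with the percent of the sum that is Alas2 above each bar. The grey part is between 11.7 and 14.0 FPKM throughout, and the purple part is between 0.461 and 0.686 FPKM in Con and between 1.55 and 3.15 FPKM in Van.

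Alas2 was also set against the enzymes that follow it. The log2 CPM ratio of Alas2 to each of the 7 other genes was higher in all Van libraries than in all Con libraries, with differences of the group means from 1.58 (over Cpox) to 2.10 (over Fech). Each of the 7 exact permutation tests gave p = 0.1, the smallest possible, also after Benjamini-Hochberg adjustment over the 7. All of these ratios share the same Alas2 values.

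Globin mRNA rose as Alas2 did. The 4 adult globin genes (Hba-a1, Hba-a2, Hbb-bs and Hbb-bt), whose protein chains hold the heme that Alas2 helps to make, summed to 138, 202 and 99.0 FPKM in Con and to 478, 767 and 341 FPKM in Van. The order of the 6 libraries by globin was the same as by Alas2. Each of the 4 was called, with log2 fold changes from 1.76 (Hba-a1, adjusted p of 0.0403 by edgeR) to 1.95 (Hbb-bt, adjusted p of 0.0223 by edgeR), close in size to that of Alas2. Hba-a1 with Hba-a2, and Hbb-bs with Hbb-bt, are near-identical copies, and how reads were split between them is uncertain. Leaving out any 1 library other than Van 3 ended the call of all 4 globin genes (adjusted p in edgeR between 0.0506 and 0.147), and without Van 3 the call of Hba-a1 was lost (0.0530). All 4 calls were also lost with limma on FPKM (adjusted p between 0.132 and 0.202), while with the replicate block in edgeR each had an adjusted p of 0.000311.

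**Figure D3:**
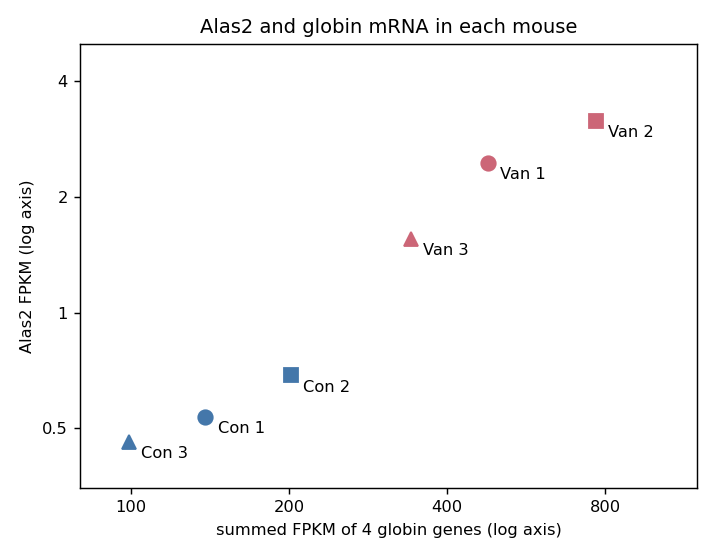
Alas2 FPKM against the summed FPKM of 4 globin genes, with 1 point per library and both axes logarithmic. The points run from Con 3 (99.0 and 0.461 FPKM) to Van 2 (767 and 3.15 FPKM) with the same order on both axes, and the 3 Van libraries lie above and to the right of the 3 Con libraries.

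Relative to globin, the level of Alas2 overlapped between the groups. For every 100 FPKM of globin there were 0.388, 0.340 and 0.466 FPKM of Alas2 in Con and 0.512, 0.411 and 0.456 FPKM in Van. The highest Con ratio lay above 2 of the 3 Van ratios, with means of 0.398 ± 0.063 and 0.460 ± 0.050 (SD, n = 3), and the exact two-sided permutation test gave p = 0.3, which does not show that the 2 ratios are alike.

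Of the whole list of 20 erythroid markers, 19 were matched in the tables and 16 passed the filter. In Van 15 of these were higher and 1 was lower, with a median log2 fold change of 1.59. The edgeR test called 5 of them, beside 2.00% of all genes tested, all higher, the fifth being Epb42, a protein of the red cell membrane (0.229 CPM in Con against 1.25 CPM in Van, log2 fold change 2.46, adjusted p of 0.0344, and between 0.0620 and 0.144 when 1 library, whichever it was, was left out). In 8 of the 16 the groups did not overlap, beside 22.5% of all genes tested, and no marker was at 0 in all 6 libraries. The summed level of the list was 101 to 205 FPKM in Con and 344 to 775 FPKM in Van, and nearly all of it was globin.

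The regulators of red cell precursors were near the lower limit of these libraries. Gata1, the transcription factor that starts the erythroid programme, was at 0.244 CPM in Con against 0.345 CPM in Van, and Klf1, which switches on adult globin, at 0.187 and 0.584 CPM, and neither was called. Without globin the list summed to 1.85 to 3.46 FPKM in Con and 2.98 to 7.78 FPKM in Van, and these ranges overlapped. The study gives the selected cells as bearing CD11b. It lists them as lacking CD117, which early red cell progenitors carry, and markers of T, B and NK cells, neutrophils and eosinophils. The list names no marker of later red cell precursors. The part that red cell precursors or their RNA have in the Alas2 difference was not tested.

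Cpox, coproporphyrinogen oxidase of the mitochondrial intermembrane space, was the only shared enzyme that came near the threshold. It was at 19.2, 19.9 and 16.5 CPM in Con and at 23.5, 28.3 and 25.6 CPM in Van. Every Van library lay above every Con library. The log2 fold change was 0.47 with a standard error of 0.10, a fold of 1.39 (95% interval 1.18 to 1.63), but the adjusted p of the edgeR quasi-likelihood test was 0.0560, so Cpox was not called. With the Wald test of DESeq2 the adjusted p was 0.00246 and Cpox was called, and it was also called by edgeR with no filter on low counts (adjusted p of 0.0424), with at least 10 counts required in every library (0.0451) and with counts scaled to fragments (0.0498). The other 12 refits did not call it, with adjusted p of 0.0542 to 0.0597 in edgeR under other scalings or 1 identifier per symbol, 0.0948 with the replicate block, 0.203 and 0.184 in limma on FPKM, and 0.0707 to 0.193 in edgeR with 1 library left out. Over the 6 libraries the log2 CPM of Cpox had a Pearson r of 0.93 with Alas2, a description over points that include the group difference. Markers of red pulp macrophages, spleen cells that take up old red cells, were also higher, 6 of 6 in Van with none called by edgeR (4 at an unadjusted p under 0.05, beside 8.37% of all genes tested) and Vcam1 and C1qb among the 962 genes called by DESeq2, none of the 6 at 0, and a summed level of 741 to 901 FPKM in Con and 929 to 1191 FPKM in Van. Their part in the Cpox values was not tested.

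Fech, the ferrochelatase that completes heme, varied least between libraries relative to its level. Con libraries held 37.5, 38.1 and 36.9 CPM and Van libraries 36.2, 36.8 and 36.3 CPM. The groups were separated by less than 1 CPM, with the lower values in Van, and in FPKM they overlapped. The log2 fold change was -0.04 with a standard error of 0.06 (adjusted p of 0.796 by edgeR). With Alas2 and Cpox, Fech made 3 of 8 enzymes whose groups did not overlap in CPM, beside 22.5% of all genes tested, and 2 of 8 did not overlap in FPKM.

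The 4 other shared enzymes overlapped between the groups, and none was called. Alad, which makes porphobilinogen, was at 3.18 to 4.59 CPM in Con and 3.42 to 5.20 CPM in Van, with a log2 fold change of 0.18 and a standard error of 0.22. Uros, which closes the ring, was at 6.09 to 7.05 CPM and 6.78 to 7.90 CPM (0.12, standard error 0.12). Urod, which decarboxylates the ring, was at 21.1 to 23.7 CPM and 23.1 to 24.7 CPM (0.11, standard error 0.07). In all 3 the point estimate lay above 0. Ppox, which oxidises the product of Cpox, was at 30.7 to 36.0 CPM and 32.1 to 35.4 CPM, with a log2 fold change of -0.01 (standard error 0.08). The edgeR adjusted p of these 4 was between 0.538 and 0.974, and the 95% interval was widest for Alad, at -0.32 to 0.67.

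**Figure D4:**
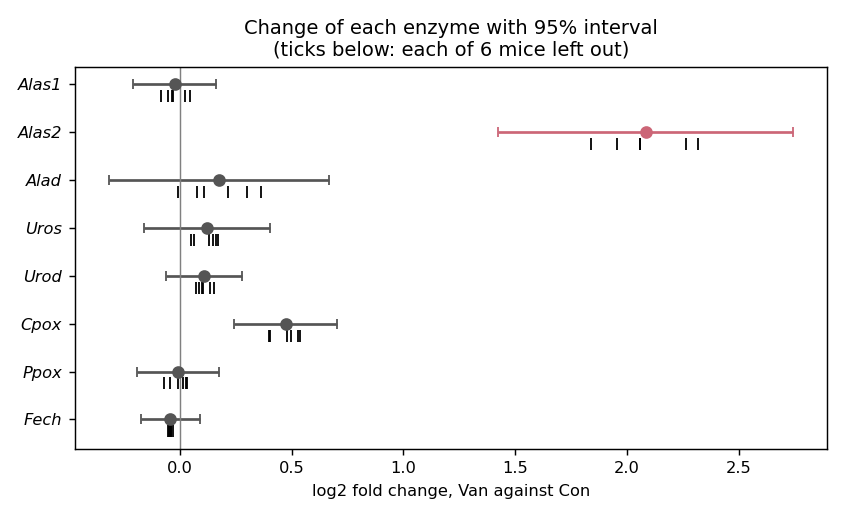
Log2 fold change of Van against Con for each enzyme, as a point with its 95% interval, and below it ticks for the 6 fits that each leave out 1 library. Alas2 at 2.08 and Cpox at 0.47 have intervals clear of 0, only Alas2 (red) has an adjusted p of at most 0.05, and the other 6 intervals span 0.

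The order of the enzymes by length-scaled level was nearly the same in both groups. In Con, Urod was highest at 14.5 FPKM, followed by Alas1 at 12.6, Fech at 10.8, Ppox at 9.61, Cpox at 4.86, Uros at 3.11, Alad at 2.49 and Alas2 at 0.561 FPKM. Urod with Alas1, and Uros with Alad, overlapped, while the other neighbours were separated. In Van the order was the same, from Urod at 15.5 FPKM through Alas1 at 12.1, Fech at 10.6, Ppox at 10.0, Cpox at 6.82, Uros at 3.43 and Alad at 2.82 to Alas2 at 2.39 FPKM. Alas2 was separated from Alad in Con and overlapped it in Van, and in Van Fech overlapped Ppox and Uros overlapped Alad. The 8 enzymes summed to 57.9 to 59.0 FPKM in Con and 61.4 to 67.4 FPKM in Van.

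Among 12 genes that move heme, its intermediates or mitochondrial iron across membranes, 11 were tested, 4 were higher, 7 were lower, and 1 was called, beside 2.00% of all genes tested. This was Flvcr1, the exporter of heme from the cell. Flvcr1 was at 102, 104 and 106 CPM in Con and at 86.4, 77.6 and 76.4 CPM in Van. All Van libraries lay below all Con libraries, with a log2 fold change of -0.38, a standard error of 0.07 and an edgeR adjusted p of 0.0318. Without Con 1, 2 or 3 or without Van 2 or 3 the adjusted p was between 0.0673 and 0.148, so that only the fit without Van 1 kept the call (0.0368) among these 6. The call was also lost with the replicate block in edgeR (0.0893) and with limma on FPKM (adjusted p of 0.155 and 0.136).

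The mitochondrial importers that erythroid cells rely on were not called. Slc25a38, the mitochondrial glycine carrier, had a log2 fold change of -0.01, and Slc25a37 (mitoferrin 1), the mitochondrial iron importer, 0.05, with edgeR adjusted p of 0.984 and 0.809. Abcb10, a mitochondrial transporter needed for hemoglobin production, was at 14.5 CPM in Con against 16.6 CPM in Van, and Tmem14c, which carries protoporphyrinogen IX into the mitochondrial matrix, at 83.0 and 96.1 CPM. In both the groups did not overlap, as in 4 of the 11 on this list and 22.5% of all genes tested, and neither was called (edgeR adjusted p of 0.271 and 0.113).

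Iron supply and the regulators of the first step showed no call. Of 10 genes of iron uptake and iron-sulfur clusters, 6 were higher and 4 lower, with a median log2 fold change of 0.01. Tfrc, the transferrin receptor by which cells take up iron, was at 17.8 CPM in Con against 15.7 CPM in Van (adjusted p of 0.719 by edgeR). Of 12 regulators of heme or of Alas1 and Alas2, 11 were tested, 6 higher and 5 lower, with a median of 0.02. Bach1, the repressor that heme releases from DNA, was at 376 and 373 CPM, Ireb2, which binds iron responsive elements, at 74.8 and 68.8 CPM, Nrf1, a factor for nuclear genes of mitochondria, at 37.6 and 35.1 CPM, and Eif2ak1, the kinase that senses heme, at 98.8 and 97.4 CPM. All 4 lay within 0.12 of 0 on the log2 scale.

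No gene was called in the lists of heme breakdown and of heme proteins, the latter of which leaves out the globin genes given above. Of 4 breakdown genes, 3 were higher and 1 lower, none was called, and Hmox1, the heme oxygenase that opens the ring, was at 1067 CPM among Con and 1233 CPM among Van libraries (log2 fold change 0.21, adjusted p of 0.467 by edgeR). Of 14 genes for heme proteins and their heme a makers, 13 were tested, 6 higher and 7 lower, and none was called. Cybb, the heme-holding subunit of the phagocyte NADPH oxidase, was at 2546 and 2229 CPM without overlap (adjusted p of 0.174 by edgeR). At an unadjusted p under 0.05, edgeR had 1 gene higher in the iron list, none among the regulators and the breakdown genes, and 2 lower among the heme proteins, beside 8.37% of all genes higher and 8.14% lower. The Wald test of DESeq2 also called none in these 4 lists, and in the transport list it called Flvcr1 and Tmem14c.

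**Figure D5:**
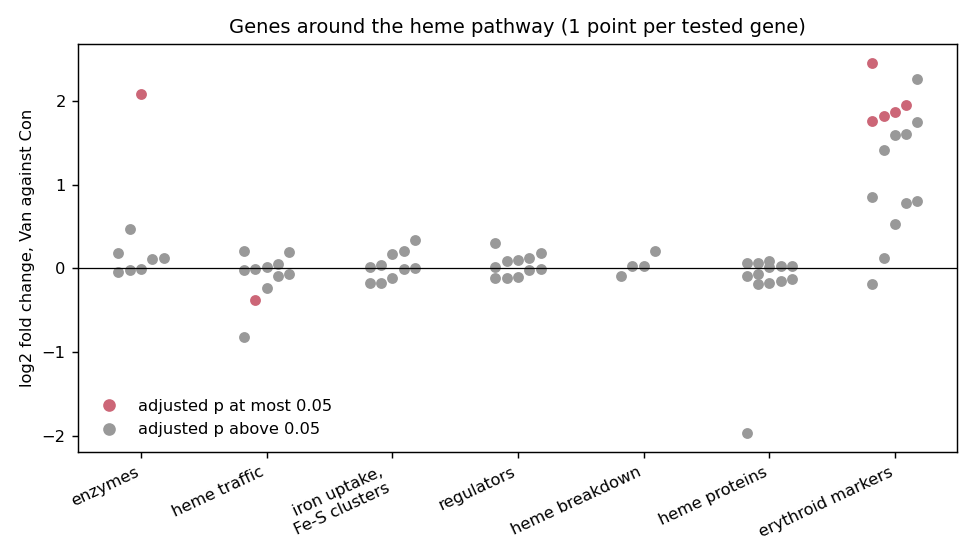
Log2 fold change of Van against Con for the 8 enzymes and for each tested gene of 6 neighbouring lists, 1 point per gene, red where the adjusted p is at most 0.05. The red points are Alas2 (2.08), Flvcr1 (-0.38) and 5 erythroid markers (1.76 to 2.46), and the other lists lie mostly within 0.5 of 0.

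Outside the erythroid list, no marker of another spleen cell was called higher by edgeR. None of the tested B cell (5), T cell (6), NK cell (3), neutrophil (4) or platelet and megakaryocyte (6) markers was called by edgeR, and their medians of the log2 fold change were between -1.21 and -0.38. At an unadjusted p under 0.05, edgeR had 0 B cell, 1 T cell, 0 NK cell, 1 neutrophil and 2 platelet and megakaryocyte markers lower and none higher, beside 8.14% of all genes lower and 8.37% higher, and DESeq2 called none in these lists. Of the basophil, mast cell and eosinophil markers 1 of 5 was tested and not called. Platelet and megakaryocyte markers, which share Gata1 with red cells, summed to 11.1 to 23.3 FPKM in Con and 10.6 to 13.5 FPKM in Van. Of the 10 monocyte markers 5 were higher and 5 lower, and Ccr2, the receptor that brings monocytes into tissue, was the only 1 called by edgeR, beside 2.00% of all genes tested, at 731 CPM in Con against 411 CPM in Van (log2 fold change -0.83, adjusted p of 0.0283 by edgeR, and between 0.0722 and 0.0991 without Con 1, 2 or 3 or without Van 2). The Wald test of DESeq2 called Ccr2 and Itgam lower and Cd14 higher among them. Of 5 dendritic cell markers 1 was higher and 4 were lower (1 higher and 3 lower at an unadjusted p under 0.05 in edgeR, beside 8.37% and 8.14% of all genes tested), and DESeq2 called Clec9a, Xcr1 and Siglech lower. By edgeR Clec9a alone was called, beside 2.00% of all genes tested, at 10.1 and 4.66 CPM (-1.12, adjusted p of 0.0131 by edgeR, 0.0721 without Con 3 and 0.0758 without Van 2).

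By likeness over the 6 libraries, the 5 genes whose log2 CPM had the highest Pearson r with Alas2, among 12683 genes with a mean of at least 1 CPM, were Nptxr (0.996), E4f1 (0.994), Kctd18 (0.992), Usp54 (0.992) and Hbb-bt (0.992). For Alas1 they were 9930104L06Rik (0.996), Rbmx2 (0.986), Gpc1 (0.984), Ighv4-1 (0.983) and Exosc4 (0.981). No gene stood in both lists. With so many genes and 6 points, of which 3 share a group, values this high say little about any 1 gene, and Nptxr, a neuronal receptor gene, itself was at 0.0621 by the edgeR adjusted p. The r of Alas1 with Alas2 was -0.23.

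The genes lie on 7 chromosomes of GRCm38, Alas2 on X (150547375 to 150570638, plus strand), Alas1 on 9 (106233455 to 106248654, minus strand) and Cpox on 16 (58670292 to 58717636, plus strand). The values are per gene and do not separate exons. Exons of 4 enzymes share bases with a gene on the opposite strand, and whether counting used the strand of the library is not stated. For Alas2 this is Apex2, a DNA repair gene, over 311 bases or 12.9% of its exon length. Apex2 averaged 5.80 CPM in Con against 5.85 CPM in Van, with a log2 fold change of 0.01 and an edgeR adjusted p of 0.978. For Cpox it is Gpr15, over 204 bases or 3.06%, at 2.52 and 1.37 CPM (-0.89, adjusted p of 0.235 by edgeR), in the direction opposite to Cpox. For Ppox it is B4galt3, over 17.5% of its exon length, with a log2 fold change of -0.03, and for Alas1 an antisense transcript over 7.53% that was too low to test. Stretches of Fech exons recur in other annotated transcripts, at least 95% alike over 200 bases, and 1 such stretch of Cpox recurs in Gm4419, so that the levels of both are uncertain where reads could be split.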

How the data were processed

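The 6 libraries hold polyadenylated RNA of splenic monocytes, 3 of Con and 3 of Van, as the sample labels give the groups. The authors aligned reads of a stranded library to GRCm38 with HISAT2 2.2.1 and assembled them with StringTie 2.1.3 and Ballgown. The deposited FPKM values are scaled to length and library. The authors derived the estimated counts from them with tximport, without scaling to library size. These deposited estimated counts are covered bases over an assumed read length of 75, and the fragment numbers given were computed from that. How multiply aligned reads and strand were handled is not given in the sources used here.

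Counts were rounded and analysed with edgeR 4.0.16 in R 4.3.3, by the quasi-likelihood test with group as the only term, TMM scaling and filterByExpr with a minimum count of 10. P-values were adjusted by Benjamini-Hochberg over 16138 genes, and a gene was called at 0.05. CPM are TMM-scaled. Folds are fitted coefficients, and standard errors were derived from the F statistic. Single quantities were compared by exact two-sided permutation tests. Scripts were tested on simulated data. The alternatives were DESeq2 1.42.0, limma 3.58.1 on log2(FPKM + 1) or log2(FPKM + 0.1) after quantile normalization, other scalings and filters, a replicate block, counts on the fragment scale, 1 identifier per symbol, and each library left out.

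The enzymes and the lists were chosen with earlier results of these data known. The genes named are the 8 enzymes, called genes and defining genes of the lists, the 5 most alike in pattern to Alas2 and to Alas1, and genes overlapping an enzyme. Flvcr1 (Mfsd7b in the tables), Flvcr2 and Epb42 (Epb4.2) were matched by identifier after their symbols were found missing, which added the calls of Flvcr1 and Epb42. Abcb10 and Tmem14c were named, and the Cpox promoter shown, after their values were seen, and the alternatives for listed genes were added then. Promoters come from RefSeq (GRCm38.p6), with windows for 7 of the 8 enzymes. The window was shortened to 250 bases, and the search for the iron responsive element moved to 5′ UTRs, after a first scan. The planned protein sequences were not analysed here, and some genes of the lists are not reported here by name.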

Additional observations from a re-analysis of the deposited data

How the results depend on the processing

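Of the 128 refits of the 8 enzymes, 110 kept the direction and the side of the threshold. Over all genes, 322 were called by edgeR, 962 with DESeq2, 110 with the replicate block, 11 with limma on log2(FPKM + 1) and 21 with limma on log2(FPKM + 0.1), and between 21 and 136 when 1 library was left out. Of the 8 enzymes, 1 was called, 2 (with Cpox) under DESeq2, without the filter, with 10 counts required of each library or on the fragment scale, 0 under both limma fits, and 0 to 1 with 1 library left out. The log2 fold change of Alas2 was 1.10 in limma on log2(FPKM + 1) and 1.89 on log2(FPKM + 0.1), neither called, and 1.84 to 2.32 with 1 library left out. That of Cpox was called at 0.47 with DESeq2, 0.48 without a filter, 0.47 with the stricter filter and 0.47 on the fragment scale, and was 0.40 to 0.54 with 1 library left out. With 1 library left out, Alas1 ran from -0.083 to 0.047, Alad from -0.0053 to 0.36 and Ppox from -0.071 to 0.035, and Ppox turned to 0.030 and 0.032 in the limma fits. The difference of the log2 ratio of Alas2 to Alas1 was 1.14 on log2(FPKM + 1), where the pseudocount exceeds Alas2 in Con, and 1.86 to 2.39 with 1 library left out. The cause of the other shifts was not tested.

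Over all genes the replicate numbers gave no sign of pairing, since deviations of same-numbered libraries had correlations of 0.03, -0.002 and -0.07. For Alas2 and for summed globin, in FPKM, replicate 2 was highest and replicate 3 lowest in both groups. The standard error of Alas2 was 0.19 with the replicate block against 0.29 without it. Whether the libraries were paired was not tested. With the replicate block the log2 fold change of Alas2 was 2.06 (adjusted p of 0.0196 by edgeR), the ratio of Alas2 to Alas1 rose by 2.07 (exact permutation p = 0.25, the smallest that 3 pairs allow), and the calls of Flvcr1, Epb42 and Ccr2 were lost (adjusted p of 0.0893, 0.0893 and 0.0549 by edgeR), while those of the 4 globin genes and Clec9a were kept (0.000311 for each globin gene, 0.0285 for Clec9a). The calls of Epb42, Ccr2 and Clec9a were also lost in both limma fits on FPKM (adjusted p between 0.0983 and 0.275). Alas2 in Con rested on 17.2 to 36.9 fragments a library, which limits its precision more than depth limits the other enzymes.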
